A study of Mus musculus with 18 samples.

Results

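The comparison described here is that of invading with non-invading mouse lung fibroblasts 96 hours after plating on collagen, across all genes of the array. It takes 10 of the 18 samples of the series, 5 titled invading and 5 titled non-invading, each named as a separate biological replicate. All are MLg 2908 cells, a lung fibroblast line from newborn mice of strain ddY, wild type, so that replicates are samples of 1 line and not separate animals. No label says that they came from separate cultures, while the study describes each column in its heatmaps of these arrays as an independent experiment. P-values measure the spread between these samples of 1 line, which may in part be technical. Cells were laid on polymerised collagen in medium with serum, and at 96 hours those that had entered the gel (invading) were separated from those still on top of it (non-invading). The treatment entry of every sample mentions TGFB1 beside the assay, while titles and source names give no agent, and both fractions carry the same entry. For these arrays the study describes spontaneous invasion, and the caption of its heatmaps explains a label for non-treated cells. It describes adding TGFB1 only in separate invasion assays. The remaining 8 samples, 4 of each fraction at 72 hours, are used only to show the same genes at an earlier time. Genes are those with a probe set that carries exactly 1 gene symbol, 19938 in all, each given by its brightest probe set.

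A fibroblast that enters a collagen gel has to open a path through fibrillar matrix, for which secreted and membrane-bound metalloproteinases are best known, and to pull itself along with actin protrusions and integrin contacts. Lung fibroblasts also make most of the interstitial collagens, and growth factors of the TGF-beta, FGF, PDGF and HGF families are known to drive their movement. Cells taken from inside a gel and cells taken from its surface also differ in where they lie, in their contact with medium and in how they were collected, and these cannot be told apart from invasion itself.

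The samples were alike in quality. Within each fraction the log2 signals of sample pairs correlated at 0.991 to 0.996, and no pair of samples was identical. The median log2 signal of a sample lay between 6.46 and 6.64 over all probe sets and between 7.14 and 7.19 over those with 1 gene symbol. Signals of defining genes were read against the 1015 olfactory receptor genes, which a fibroblast is not known to use, and of which the 95th percentile lay at a log2 signal of 5.96. Of 14 fibroblast markers 13 lay above that level, with means of 13.55 for Fn1, 13.54 for Vim and 13.32 for Dcn, and Fap at 4.52 was the exception. Markers below that level included Pecam1, Cdh5, Kdr and Emcn (endothelial), Ptprc, Adgre1, Itgam and Csf1r (leukocyte), and Epcam, Sftpc and Scgb1a1 (epithelial). Above it lay 3 of 10 endothelial, 4 of 13 leukocyte, 8 of 15 epithelial and 4 of 8 mesothelial markers. The brightest of each were Vwf at 6.59, Cd14 at 7.91, Krt8 at 7.53 and Msln at 10.14. Probe sets differ in brightness, so these levels rank no gene against another.

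How many markers passed between the fractions depended on the scaling. Of the 14 fibroblast markers 1 was higher in the invading fraction and 5 were lower, a balance that turned to 6 higher and 2 lower with the arrays centred on the median of all their probe sets. None of 10 endothelial markers passed the test in limma, 2 of them with an unadjusted p under 0.05. Of 15 epithelial markers 4 were higher, Krt8 by a log2 ratio of 0.32 and Aqp5, Epcam and Cdh1 by less. Of 13 leukocyte and macrophage markers 3 were higher, Cd68 by 0.56, Cd14 by 0.42 and Lyz2 by 0.41. The mean log2 signals of Epcam and Lyz2, 5.44 and 5.55, lay below the olfactory receptor level of 5.96. With centring on all probe sets 7 of the endothelial, 8 of the epithelial and 10 of the leukocyte markers were higher, and with quantile normalization again 7, 8 and 9, none lower in either. The mean log2 signal over the leukocyte list ran from 5.69 to 5.87 in invading and from 5.58 to 5.74 in non-invading samples, and over the epithelial list from 6.04 to 6.14 and from 5.95 to 6.10. The mesothelial markers Lrrn4 and Msln were lower, by 0.86 and 0.63 on the log2 scale, and the other 6 of that list did not pass. In RNA from whole fractions, fewer cells of a type and less RNA per cell cannot be told apart, and the part of these markers in the results was not tested.

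The fractions differed in many genes, mostly by small amounts. At an adjusted p under 0.10 (limma, Benjamini-Hochberg over all 35556 probe sets) 3322 genes, 16.7% of those measured, were higher in the invading fraction and 2933, or 14.7%, were lower. Over 1.5-fold there were 227 higher genes (1.14%) and 402 lower ones (2.02%), and over 2-fold 40 and 68. All 5 invading samples lay above all 5 non-invading samples for 1865 genes (9.35%) and below them for 1755 (8.8%). These percentages are the background for every list below, where higher and lower always mean past that adjusted p in the invading fraction. The median log2 ratio of all genes was 0.02.

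The balance of the small changes depended on how the arrays were scaled. Centring each array on the median of all its probe sets moved the median log2 ratio of all genes to 0.14 and the split to 9120 higher and 1579 lower genes, and quantile normalization applied again moved it to 0.11, with 7696 and 2498. Centring on the probe sets with 1 gene symbol left it at 0.03, with 3485 and 2791. Scaling over all probe sets takes in 6617 unnamed low-numbered ones, which had a median log2 ratio of -0.28. With these left out of the test and values unchanged, 3424 genes were higher and 3039 lower. Their part in the shifts was not tested. Values here are those of the deposited scaling. Of 61 gene lists, 34 had more higher than lower members, and none of these turned under the 3 other scalings. All 3 moved the median log2 ratio of all genes up, so a list with more higher members could hardly turn. That none did is therefore no support for their balance. Of the 24 lists with more lower than higher members 20 turned, so for these the counts are given without a direction. The 4 that did not turn were cholesterol synthesis, splicing regulators, Zfp zinc finger genes and mesothelial markers.

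**Figure D1:**
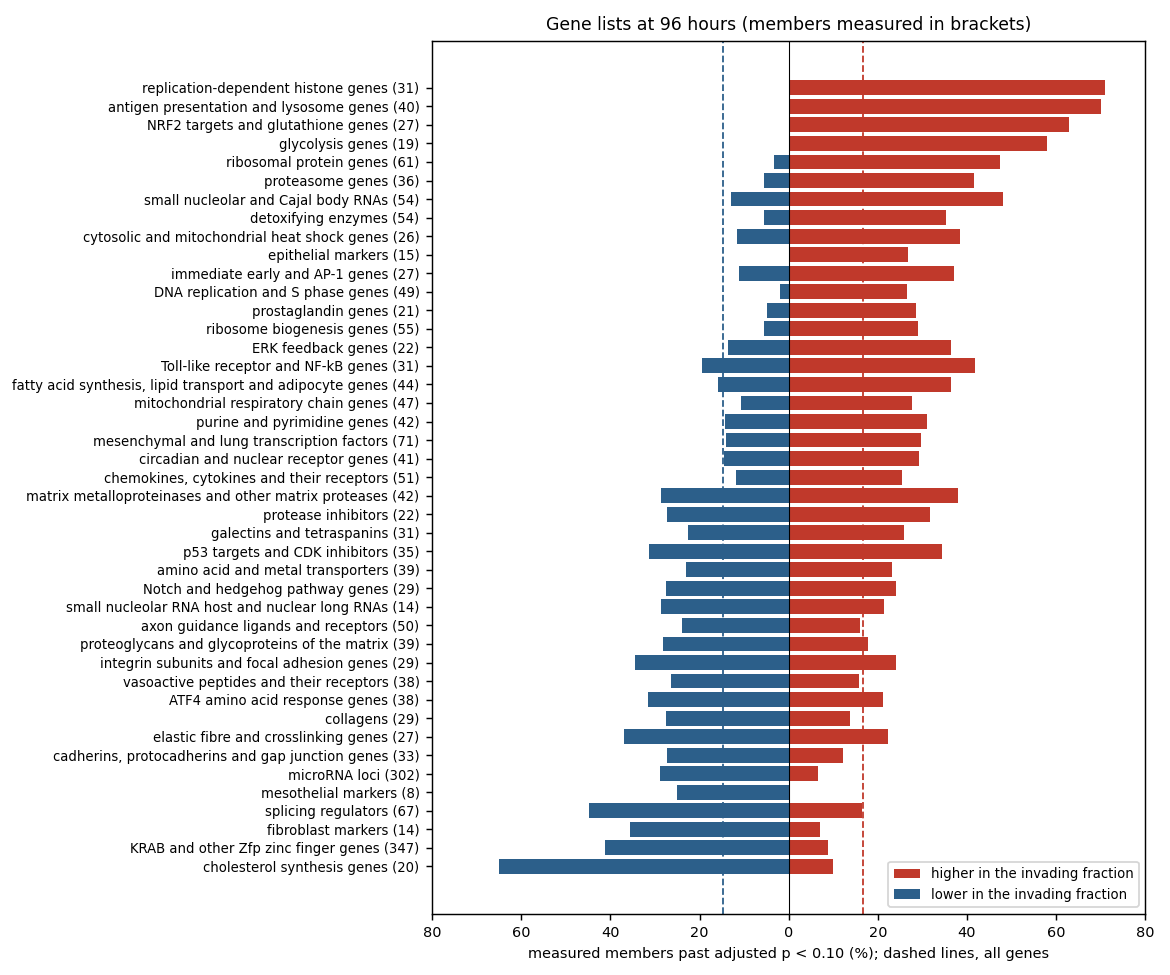
Share of the measured members of each gene list that passed an adjusted p under 0.10 at 96 hours, higher (right, red) or lower (left, blue) in the invading fraction, with the shares of all genes as dashed lines at 16.7% and 14.7%. Lists are shown where either share reached 1.5 times that of all genes; histone, lysosome, NRF2 and glycolysis genes stand at the top with no lower member, and cholesterol synthesis genes at the bottom with 65.0% lower.

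Matrix proteases gave the largest single differences. Mmp13, a collagenase that cuts fibrillar collagen, had log2 signals of 9.32, 10.17, 9.70, 9.88 and 9.60 in the 5 invading samples and of 6.54, 6.64, 6.84, 6.36 and 6.20 in the 5 non-invading samples. The fractions were far apart, with a log2 ratio of 3.21 ± 0.16 (SE, n = 5 per fraction), or 9.28-fold (adjusted p = 2.8e-06). Mmp10, a stromelysin, read 8.50, 8.49, 7.61, 7.81 and 7.53 in invading against 6.35, 6.40, 5.86, 6.42 and 6.27 in non-invading samples, 3.31-fold (adjusted p = 2e-04). Of the 42 measured proteases 16 were higher and 12 lower. Divided by kind after the values were seen, 11 of 16 matrix metalloproteinases were higher and 1 lower. The higher ones included the gelatinase Mmp9 at a log2 ratio of 1.08, Mmp11 at 0.66 and the membrane-bound collagenase Mmp14 at 0.55. Of 9 ADAMTS proteases, which cut proteoglycans and procollagens, 2 were higher and 6 lower.

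Adamts5, the main aggrecanase, is the clearest of the lower ones. Its log2 signals were 10.58, 10.13, 10.32, 10.24 and 10.09 in invading samples and 11.24, 11.58, 11.61, 11.32 and 11.63 in non-invading samples, without overlap. The log2 ratio was -1.21 ± 0.11 (adjusted p = 4.8e-05), and those of Adamts6, Adamts10 and Adamts1 were -1.12, -0.94 and -0.92. Inhibitors of proteases were split, with 7 of 22 higher and 6 lower. Timp3, a metalloproteinase inhibitor that stays bound to the matrix, fell by 0.69 on the log2 scale and Pi15 by 0.91, while Pi16 rose by 0.56.

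Among 29 collagens 4 were higher and 8 lower, a balance that turned to 15 and 4 with the arrays centred on all probe sets. The 2 chains of basement membrane collagen IV, Col4a1 and Col4a2, rose by 0.46 and 0.48 on the log2 scale, and Col18a1 by 0.46. The fibrillar chains Col11a1 and Col5a2 fell by 0.68 and 0.66, Col3a1 by 0.35, and Col12a1, which sits on the surface of fibrils, by 0.91. Of 39 proteoglycans and matrix glycoproteins 7 were higher and 11 lower, and of 27 elastic fibre and crosslinking genes 6 and 10, and both balances turned under the same centring. Glypican Gpc1, a cell-surface heparan sulphate proteoglycan that binds growth factors, read 10.39, 10.14, 10.03, 9.90 and 10.04 in invading against 9.56, 8.94, 8.86, 8.94 and 8.72 in non-invading samples, 2.13-fold (adjusted p = 0.00038). Hemicentin Hmcn1 and nidogen Nid2, both of basement membranes, fell by 1.48 and 0.76. The transglutaminase Tgm2, which crosslinks matrix proteins, rose by 0.75, and P4ha3, a prolyl hydroxylase subunit for collagen, fell by 1.19. Of 15 hyaluronan genes only Cemip passed at the deposited scaling, where it was lower, and with centring on all probe sets 7 were higher and 1 lower.

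**Figure D2:**
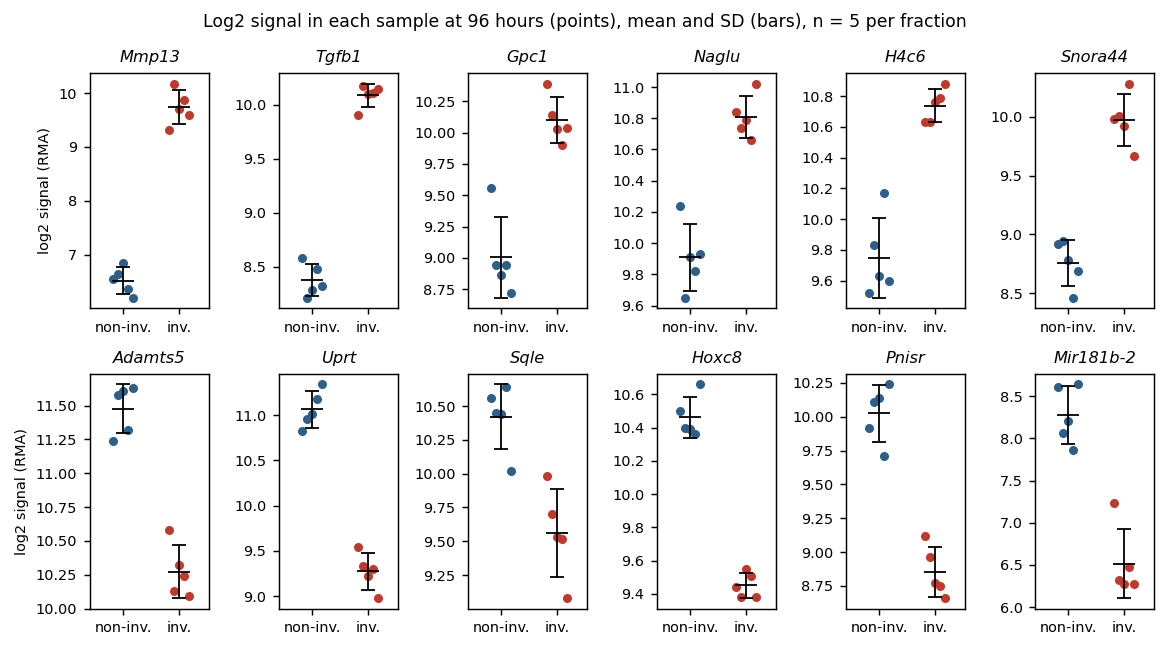
Log2 signal of 12 genes in each sample at 96 hours (points, non-invading in blue and invading in red), with the mean and SD of the 5 samples of a fraction as bars; the vertical axis differs between panels. In each of the 12 panels all invading samples lie on 1 side of all non-invading samples, with the widest gap for Mmp13.

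Contacts and protrusions showed no single direction. Of 29 integrin and focal adhesion genes 7 were higher and 10 lower, turning to 11 and 8 with centring on all probe sets. The collagen-binding alpha chain Itga1 had a log2 ratio of -0.70, Itga8, which binds fibronectin, one of -0.77, and the laminin-binding chains Itga7 and Itga6 had -0.86 and 0.56, and in each of them the fractions overlapped. Of 33 cadherin, protocadherin and gap junction genes 4 were higher and 9 lower, which also turned. Pcdh9 fell by 1.25, and N-cadherin Cdh2, known as the main cadherin of fibroblasts, by 0.76, without overlap. The tight junction gene Cldn1 read 6.93, 6.18, 6.34, 6.45 and 6.20 in invading against 7.68, 8.17, 7.51, 8.06 and 8.66 in non-invading samples, 3.03-fold lower (adjusted p = 0.00035).

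The genes of branched actin and invadopodia, the protrusions through which cells release proteases, were 9 of 36 higher and 4 lower. Their log2 ratios stayed between -0.35 and 0.61. The largest was that of Sh3pxd2b, a scaffold of invadopodia also called TKS4, at 0.61 ± 0.05 (adjusted p = 4.4e-05), followed by cortactin Cttn at 0.41 and Arpc4 of the Arp2/3 complex at 0.37. Smooth muscle contractile genes were 5 of 28 higher and 6 lower and turned, with Tpm2 and Tagln at -0.62 and -0.60. Of 50 axon guidance genes, which guide cell movement by attraction and repulsion, 8 were higher and 12 lower and turned, with Sema3a at -1.12, the receptor Epha4 at -0.81 and Sema7a at 0.72.

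Secreted factors of the TGF-beta family moved in opposite directions. Tgfb1 read 9.91, 10.18, 10.10, 10.11 and 10.15 in invading and 8.58, 8.21, 8.28, 8.48 and 8.32 in non-invading samples, 3.29-fold higher (log2 ratio 1.72 ± 0.08, adjusted p = 2.8e-06). Bmp4 and Inhba, which encodes an activin chain, fell by 1.79 and 0.85, and so did Fst, an antagonist of activin, by 1.00. Of the receptors Tgfbr2, Bmpr2 and Bmpr1a fell by 0.60, 0.52 and 0.50. The inhibitors of differentiation Id2, Id3 and Id1, known as targets of BMP signalling, rose by 0.63, 0.43 and 0.35. Over the list of 49 genes 11 were higher and 10 lower.

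Of 53 receptor tyrosine kinases and their ligands 11 were higher and 6 lower. Hgf, a ligand known for driving cell scattering, read 9.93, 10.39, 10.16, 10.15 and 9.86 in invading against 9.10, 9.31, 9.49, 9.27 and 9.39 in non-invading samples, 1.72-fold (adjusted p = 0.00036). Its receptor Met fell by 0.54 and Egfr by 0.66. Angpt2, Pdgfb and Fgf10 rose by 0.73, 0.53 and 0.45. Genes that ERK signalling induces to restrain itself were 8 of 22 higher and 3 lower, with the phosphatases Dusp4 and Dusp6 and the factor Etv4 at log2 ratios of 1.04, 0.72 and 0.85, and the inhibitors Spry1 and Spry2 at -0.74 and -0.65. Of 27 immediate early and AP-1 genes 10 were higher and 3 lower, led by Fosl1, which encodes the AP-1 subunit FRA1, at 1.09 ± 0.19 (adjusted p = 0.0016).

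Wnt, insulin-like growth factor and vasoactive lists had more lower than higher members and turned with centring on all probe sets, at 5 and 10 of 49, 2 and 3 of 18, and 6 and 10 of 38. The Wnt antagonist Sfrp1 fell by 1.11 and the nuclear effector Tcf7l2 by 0.74, while Lef1 rose by 1.13. Irs1, which couples the insulin and IGF1 receptors to PI3 kinase, and Igf1r fell by 0.95 and 0.55. The lysophosphatidic acid receptor Lpar6 fell by 0.79, and Ramp3, a partner of the adrenomedullin receptor, had a log2 ratio of 0.96 with overlap of the fractions. Of 29 Notch and hedgehog genes 7 were higher and 8 lower and turned, with Maml2 at -0.50 and Gli3 at -0.43.

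In the inflammatory lists, chemokines and cytokines were 13 of 51 higher and 6 lower. Cxcr4, the receptor of CXCL12, read 6.66, 6.93, 6.75, 6.54 and 6.64 in invading against 6.0, 5.55, 5.66, 5.81 and 5.76 in non-invading samples, 1.93-fold (adjusted p = 7.7e-05), and Cxcl12 itself fell by 0.32. The chemokines Cxcl16 and Ccl5 rose by 0.84 and 0.73. Toll-like receptor and NF-kB genes were 13 of 31 higher and 6 lower, and the 3 over 1.5-fold were all lower, namely Sike1 and Tank, which act on the kinases TBK1 and IKK epsilon, at -1.38 and -0.78, and Ly96, which encodes the TLR4 partner MD-2 and fell by 1.00. Tnip3, an inhibitor of NF-kB signalling, and Tnfrsf9, a receptor of the TNF family, were 2.51-fold and 2.14-fold higher without overlap.

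Of 39 interferon-stimulated genes 4 were higher and 5 lower and turned, and of 34 complement and coagulation genes 6 and 4. Prostaglandin genes were 6 of 21 higher and 1 lower, the latter Ptgs2, which encodes COX-2, at -0.74 with overlap. Among 31 galectins and tetraspanins 8 were higher and 7 lower, and Cd82 and Cd53 rose by 0.52 and 0.51. Cd53 was dim, with mean log2 signals of 5.36 in invading and 4.85 in non-invading samples, below the olfactory receptor level of 5.96.

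Lysosomal and antigen-presentation genes rose as a group. Of 40 measured 28 (70.0%) were higher and none lower, with 20 free of overlap and a median log2 ratio of 0.23, against 16.7% and 0.02 over all genes. In the samples of 72 hours 19 were higher and none lower, where the shares of all genes were 13% and 13.5%. Naglu, an enzyme that degrades heparan sulphate, read 10.84, 10.74, 10.79, 10.66 and 11.02 in invading against 10.24, 9.65, 9.91, 9.82 and 9.93 in non-invading samples, 1.87-fold (adjusted p = 0.00017). Hexa, which degrades gangliosides, and the collagen-degrading cathepsin Ctsk rose 1.60-fold and 1.71-fold. Ctsk was dim, with mean log2 signals of 6.16 in invading and 5.39 in non-invading samples. The rest were mostly small, such as the aspartic protease Ctsd at 0.23, Ctsb at 0.31, the proton pump subunit Atp6v1h at 0.53 and the factors Mitf and Tfe3, which drive lysosomal genes, at 0.35 and 0.27. The class I molecule H2-Q4 rose 1.78-fold, and B2m, the light chain of such molecules, had a log2 ratio of -0.01. Class I genes share much sequence, so that probe sets may not tell them apart.

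The NRF2 list, genes of the antioxidant response, had 17 of 27 members higher and none lower, with a median of 0.28, and 17 higher and 1 lower at 72 hours. Nqo1, a quinone reductase, was 2.27-fold higher (adjusted p = 8.2e-05), and Srxn1, Txnrd1 and Hmox1 had log2 ratios of 0.55, 0.52 and 0.50. NRF2 binds the antioxidant response element, the core of which was searched for as TGACNNNGC on both strands, from 250 bases before to 50 bases after the start of each gene (RefSeq promoters, GRCm38.p6). It was found for 8 of the 23 members with a promoter (34.8%), against 15.2% of 15614 genes, 18.6% of those over 1.5-fold higher and 16.1% of those over 1.5-fold lower. It was also found for 9 of 33 lysosomal and antigen-presentation genes (27.3%) and 4 of 16 cholesterol synthesis genes (25%). The AP-1 motif TGANTCA, which can overlap it, was found for 4 (17.4%), against 8.08% of all genes, 15.2% of the lysosomal list and 12.5% of the cholesterol list. A match is only a description of these letters. To show where the core lies in higher members, the matches wholly before the start of Gclm, Txnrd1, Prdx1, Abcc4 and Nfe2l2 are given with 10 bases on each side, the core in capitals. Abcc4 has a match before each of 2 annotated starts.
Gclm, chr3:122245413-122245441, plus strand: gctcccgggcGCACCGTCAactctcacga
Txnrd1, chr10:82859104-82859132, plus strand: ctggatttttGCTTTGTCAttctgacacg
Prdx1, chr4:116685456-116685484, plus strand: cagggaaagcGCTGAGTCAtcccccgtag
Abcc4, chr14:118706226-118706254, minus strand: gccccgagagGCGGGGTCAgggcgggccg
Abcc4, chr14:118676936-118676964, minus strand: aataatctcgTGACTCTGCcgtggtggat
Nfe2l2, chr2:75704885-75704913, minus strand: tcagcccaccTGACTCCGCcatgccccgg
The core of Prdx1 overlaps an AP-1 match and the others do not. The log2 ratios of these genes were 0.30 for Gclm, 0.52 for Txnrd1, 0.15 for Prdx1, 0.49 for Abcc4, and 0.30 for Nfe2l2, which encodes NRF2 itself.

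Other detoxifying enzymes, glutathione S-transferases and aldehyde dehydrogenases among them, were 19 of 54 higher and 3 lower. Gsta3 read 6.18, 7.09, 6.84, 7.45 and 6.99 in invading against 5.74, 5.82, 5.85, 5.80 and 6.01 in non-invading samples, 2.10-fold, and Cyp7b1 and Aldh2 were 1.65-fold and 1.48-fold higher.

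Genes of cholesterol synthesis fell as a group. Of 20 measured 13 (65.0%) were lower and 2 higher, 7 of them lower by over 1.5-fold, with a median log2 ratio of -0.47, which stayed between -0.47 and -0.35 under the other scalings. At 72 hours 14 were lower and none higher. Sqle, the squalene epoxidase, read 9.98, 9.70, 9.53, 9.52 and 9.08 in invading against 10.56, 10.45, 10.44, 10.64 and 10.02 in non-invading samples, 1.81-fold lower (adjusted p = 0.0024). Idi1 and Msmo1, at log2 ratios of -0.96 and -0.95, overlapped between the fractions, and Sc5d, at -0.76, did not. Hmgcs1, at the entry of the pathway, and Srebf2, which encodes the factor that induces it, fell by 0.72 and 0.34. The 2 higher members were Mvk and Mvd, at 0.25 and 0.29.

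Fatty acid, lipid transport and adipocyte genes were 16 of 44 higher and 7 lower. The cholesterol exporter Abca1 rose by 0.89 without overlap, and the lipid carrier Apoe had a log2 ratio of 1.07 with overlap. The fatty acid elongase Elovl6 fell by 0.98. Glycolysis genes were 11 of 19 higher and none lower, at most by 0.55 for Pfkl, with Hk2 at 0.42. Hypoxia response genes were 5 of 25 higher and 3 lower, and respiratory chain genes 13 of 47 higher and 5 lower. Of 42 purine and pyrimidine genes 13 were higher and 6 lower. Uprt, named for a uracil phosphoribosyltransferase of pyrimidine salvage, read 9.54, 9.33, 9.22, 9.30 and 8.98 in invading against 10.82, 10.96, 11.01, 11.18 and 11.34 in non-invading samples, 3.45-fold lower (adjusted p = 1.3e-05).

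Stress lists were mixed. ATF4 amino acid response genes were 8 of 38 higher and 12 lower, turning to 13 and 7 with centring on all probe sets, and the amino acid transporters Slc7a5 and Slc7a1 fell by 0.67 and 0.60. Amino acid and metal transporters as a whole were 9 of 39 higher and 9 lower. Chaperones of the endoplasmic reticulum were 2 of 28 higher and 5 lower and turned. Heat shock genes were 10 of 26 higher and 3 lower, with Bag3 at 0.52 and the chaperonin genes Hspd1 and Cct8 at 0.33 and 0.32.

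Genes for histones, made in S phase, stood apart from other cell cycle genes. Of 31 replication-dependent histone genes 22 (71.0%) were higher and none lower, 17 without overlap, with a median of 0.34. H4c6 read 10.63, 10.63, 10.76, 10.79 and 10.88 in invading against 9.52, 9.83, 9.63, 10.17 and 9.60 in non-invading samples, 1.99-fold (adjusted p = 0.00018), and H4c3, H2bc14 and H2bc18 rose 1.85-fold, 1.66-fold and 1.64-fold. Histone genes are near-identical copies, so their probe sets may read each other, and most of their transcripts carry no poly(A) tail. Of 49 DNA replication genes 13 were higher and 1 lower, with the licensing factor Cdt1 at 0.79 and Mcm3 of the replicative helicase at 0.50. Of 54 mitotic genes 6 were higher and 6 lower, and 15 and 3 with centring on all probe sets. Mki67, the proliferation marker, fell by 0.44 and the condensin subunit Smc4 by 0.67. Targets of p53 and inhibitors of cyclin-dependent kinases were 12 of 35 higher and 11 lower, with Gadd45a at 0.66 and Plk2 at -0.75.

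At 72 hours the same lists looked different. Mitotic genes were 30 lower and none higher there, with a median log2 ratio of -0.41 against 0.00 at 96 hours, and DNA replication genes 14 lower and 1 higher, with -0.06 against 0.13. The difference between the times did not pass an adjusted p of 0.10 for any member. At an unadjusted p under 0.05 the ratio was higher at 96 than at 72 hours for 32 of 54 mitotic genes (59.3%) and 17 of 49 DNA replication genes (34.7%), against 8.14% of all genes in either direction. Ribosome biogenesis genes were 16 of 55 higher and 3 lower at 96 hours and 4 and 9 at 72 hours. Gtpbp4 of that list was 1 of 3 genes, with Pdcl and Sarnp, for which the difference did pass. With single replicates left out, between 0 and 16 genes passed.

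**Figure D3:**
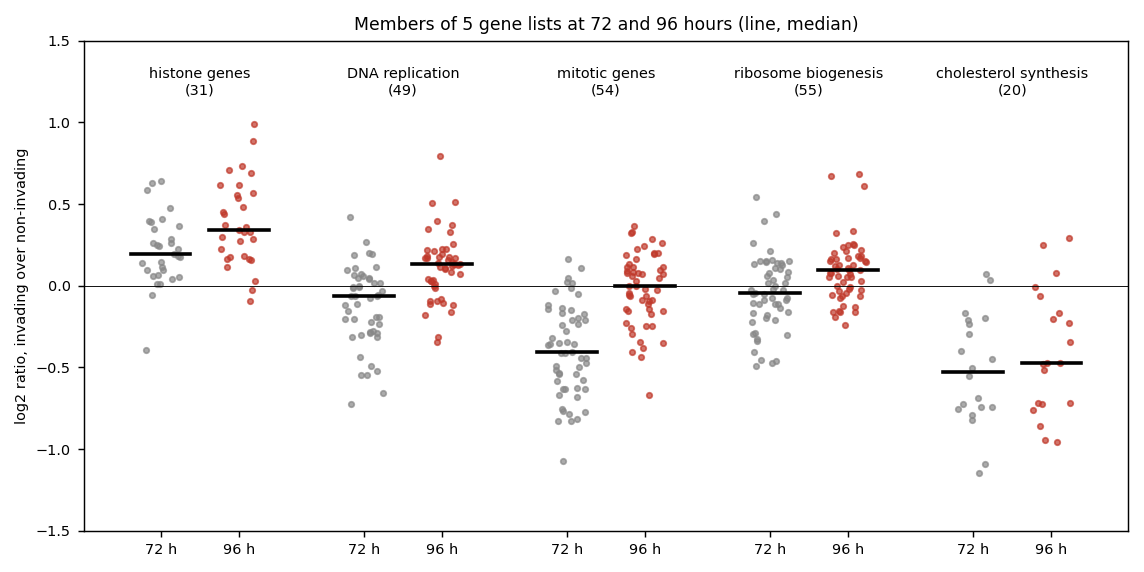
Log2 ratios of the measured members of 5 gene lists (points) at 72 hours (grey, 4 against 4 samples) and 96 hours (red, 5 against 5), with the median of each as a bar; the horizontal spread of points is arbitrary. Mitotic genes have medians of -0.41 and 0.00, histone genes lie mostly above 0 at both times, and cholesterol synthesis genes mostly below 0 at both.

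MicroRNAs silence messages that pair with their seed, bases 2 to 8 from the 5′ end, and are cut from hairpins in longer transcripts. A probe set for such a locus reads the hairpin and its transcript and does not tell them from the mature strand. Of 302 microRNA loci and host transcripts 20 were higher and 87 lower at the deposited scaling, a balance that turned to 72 and 63 with quantile normalization applied again and to 89 and 61 with centring on all probe sets. Over 1.5-fold, 31 were lower and none higher, and under the 3 other scalings 28, 22 and 21 were lower and again none higher. Of these 31, mature sequences of 28 are in the RefSeq table. Of those 28, 11 share a seed with another of them. Sequences are shown for 3 groups of loci that share a seed, since these can be read as families, and for Mir218-1, which stands for the loci that share none, with the seed in capitals.
miR-181a-5p: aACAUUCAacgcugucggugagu
miR-181b-5p: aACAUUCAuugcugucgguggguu
miR-99a-5p: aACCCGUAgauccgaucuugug
miR-100-5p: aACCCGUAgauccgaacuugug
let-7c-5p: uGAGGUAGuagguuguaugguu
let-7d-5p: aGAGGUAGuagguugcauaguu
let-7e-5p: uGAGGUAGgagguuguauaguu
miR-218-5p: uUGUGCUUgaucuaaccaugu

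The 3 seed groups were chosen for holding at least 2 loci over 1.5-fold lower, so their counts include the loci that chose them. These were 4 of the 6 with the miR-181 seed, 2 of the 3 with that of miR-99 and miR-100, and 3 of the 9 with that of let-7. Some members also lie beside each other in the genome and need not vary separately. Of the 6 measured loci with the miR-181 seed 5 were lower and none higher, with log2 ratios from -1.80 to -0.04. Mir181b-2 read 7.23, 6.32, 6.28, 6.48 and 6.27 in invading against 8.61, 8.06, 8.21, 7.86 and 8.64 in non-invading samples, 3.38-fold lower (adjusted p = 0.00018). Its neighbour Mir181a-2, on chromosome 2, was 2.62-fold lower, and the pair on chromosome 1, Mir181b-1 and Mir181a-1, had log2 ratios of -1.80 and -0.68 with overlap of the fractions. Of the 3 loci with the seed of miR-99 and miR-100, 2 were lower and Mir99b was not. Of the 9 with the let-7 seed 7 were lower and none higher, between -1.18 for Mirlet7d and 0.00, leaving out Mirlet7a-2, for which the table holds only the other strand.

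Some of the 31 had no coordinates in the RefSeq table and could not be placed. Of those placed, 17 lie less than 60000 bases from another measured locus on the same strand, in 12 clusters of 28 loci in all. These clusters were chosen for holding a locus over 1.5-fold lower, so only their other 11 loci say anything of neighbours, and of these 6 were lower and none higher at the deposited scaling. Mir16-1, Mir125b-2, Mir99b, Mir30c-1 and Mir452 did not pass, with log2 ratios from -0.26 to -0.03. Mir99a and Mirlet7c-1 lie at chr16:77598936-77599750 (GRCm38.p6, plus strand), with log2 ratios of -1.57 and -1.05. Mir100, Mirlet7a-2 and Mir125b-1 lie at chr9:41531425-41582002 on the plus strand, at -0.96, -0.63 and -0.70. Their host transcript Mir100hg, measured by a probe set of its own, read 8.76, 9.01, 8.81, 8.76 and 8.46 in invading against 10.15, 10.52, 10.60, 10.22 and 10.42 in non-invading samples, 3.09-fold lower (adjusted p = 1.5e-05). On chromosome X, Mir221 and Mir222 fell by 0.88 and 0.52. Several named loci were dim. Mean log2 signals in invading and non-invading samples were 4.77 and 5.73 for Mir100, 4.95 and 5.58 for Mirlet7a-2, and 4.32 and 5.0 for Mir181a-1. All of these lay below the olfactory receptor level of 5.96. Of the 302 loci 155 had a mean log2 signal between 5 and 8, a range in which the unnamed low-numbered probe sets of the array were lower too, with medians of -0.56, -0.58 and -0.47 per unit of signal, while all genes of that range had medians of 0.04, 0.06 and 0.04. The part of this in the microRNA values was not tested.

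**Figure D4:**
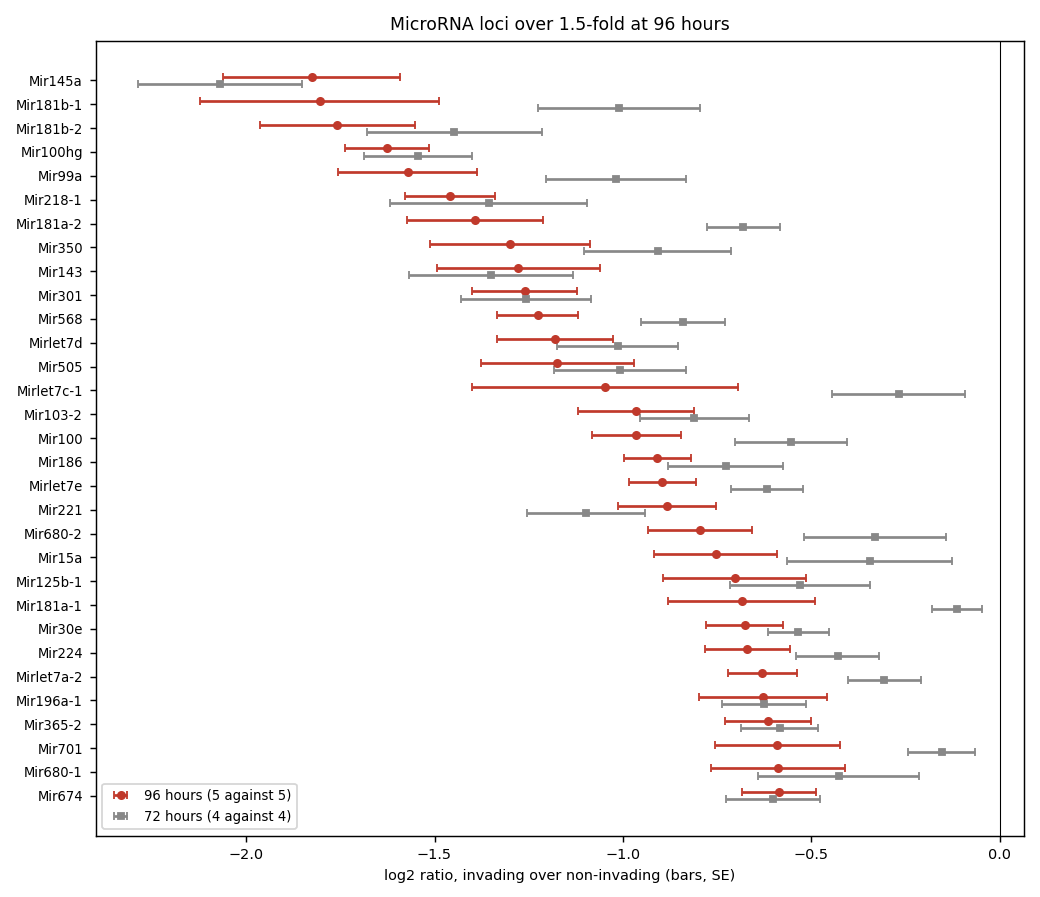
Log2 ratio, invading over non-invading, with its SE for the 31 microRNA loci and host transcripts past an adjusted p under 0.10 and 1.5-fold at 96 hours (red circles, 5 against 5 samples), and the same loci at 72 hours (grey squares, 4 against 4). All 31 points of both times lie below 0, and Mir181a-1, Mirlet7c-1 and Mir701 lie nearer to 0 at 72 hours.

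Several long noncoding RNAs that stay in the nucleus or host small RNAs were lower too. Airn, which silences imprinted genes near Igf2r, read 9.19, 9.25, 9.04, 9.06 and 9.15 in invading against 10.69, 10.76, 10.76, 10.20 and 10.74 in non-invading samples, 2.81-fold lower (adjusted p = 1.5e-05). Dnm3os, host of miR-199a and miR-214, and Firre fell by 1.42 and 1.30. In the list of nuclear long RNAs and hosts of small nucleolar RNAs 3 of 14 were higher and 4 lower, with Malat1 of nuclear speckles at -0.76 and the telomerase RNA Terc at 0.75, and this balance turned with the scaling. Imprinted genes were 3 of 25 higher and 5 lower, which also turned, with Impact at -0.84.

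Small nucleolar RNAs, which guide the modification of ribosomal RNA, went the other way. Of 54 measured with Cajal body RNAs 26 were higher and 7 lower. Divided after the values were seen, 14 of 20 Snora genes, which guide pseudouridylation, were higher and none lower, and 10 of 31 Snord genes, which guide methylation, were higher and 7 lower. Snora44 read 9.98, 10.01, 9.92, 10.28 and 9.67 in invading against 8.92, 8.94, 8.78, 8.46 and 8.69 in non-invading samples, 2.32-fold (adjusted p = 7.2e-05). Snora73a and Snora73b, near-identical copies, rose 2.19-fold and 2.12-fold, and Snora31 had a log2 ratio of 1.45 with overlap. Proteins of the same particles rose as well, Gar1 and Nhp2 of the pseudouridylation complex by 0.68 and 0.61 and the methyltransferase Fbl by 0.67. Ribosomal protein genes were 29 of 61 higher (47.5%) and 2 lower, with a median of 0.13, led by Rpl24 at 0.61, while Rpl12 fell by 0.70. Proteasome genes were 15 of 36 higher and 2 lower, at most by 0.44 for Psma3.

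Splicing regulators were lower under all 4 scalings on balance. Of 67 measured 30 (44.8%) were lower and 11 higher, and with centring on all probe sets 27 and 22. Pnisr, an SR-related splicing protein, read 9.12, 8.96, 8.77, 8.75 and 8.66 in invading against 9.92, 10.11, 10.14, 9.71 and 10.24 in non-invading samples, 2.26-fold lower (adjusted p = 6.7e-05). The kinases Clk1 and Clk4, which phosphorylate SR proteins, fell by 0.98 and 0.80, and Tia1 by 0.80. At 72 hours 33 of the list were lower and 4 higher, with 28 lower at both times.

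Of the 61 lists, the one with the most lower members was that of the Zfp zinc finger factors, many of which repress transposable elements. Of 347 measured 143 (41.2%) were lower and 31 higher, 27 lower and none higher by over 1.5-fold. With centring on all probe sets 97 were lower and 89 higher, and the median log2 ratio went from -0.10 to 0.01, so that the balance of small changes rests on the scaling while those over 1.5-fold, 14 lower there, remained in 1 direction. Zfp329 read 8.12, 7.23, 7.55, 7.41 and 7.32 in invading against 8.90, 8.70, 8.96, 8.48 and 8.95 in non-invading samples, 2.42-fold lower (adjusted p = 0.00027), and Zfp760, Zfp948 and Zfp40 had log2 ratios of -1.07, -1.03 and -1.02. Olfactory receptor genes, most of them at the lowest signals of the array, show how much of such a balance the scaling can make, with 10 of 1015 higher (0.985%) and 92 lower (9.06%) at the deposited scaling and 174 higher and 16 lower with centring on all probe sets.

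Among other regulators, mesenchymal and lung transcription factors were 21 of 71 higher and 10 lower, and Sox9, Foxf2 and Twist2 rose by 0.83, 0.69 and 0.69. Hox genes, which keep the memory of body position in fibroblasts, were 8 of 37 higher and 5 lower, and the 2 lower by over 1.5-fold lie in the HoxC cluster. Hoxc8 read 9.44, 9.38, 9.55, 9.51 and 9.38 in invading against 10.50, 10.40, 10.39, 10.36 and 10.66 in non-invading samples, 2.01-fold lower (adjusted p = 1.5e-05), and Hoxc5 fell by 0.80. Circadian and nuclear receptor genes were 12 of 41 higher and 6 lower, with the repressors Bhlhe41 and Bhlhe40 at 1.05 and 0.69 and Clock at -0.65. Ion channels were 24 of 188 higher and 14 lower, and the calcium-activated channel regulator Clca3a1 fell by 0.83.

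Some of the higher genes over 2-fold belong to no list. Tec, a tyrosine kinase known from lymphocytes, was 2.49-fold higher, Ddx41, a helicase that also senses DNA in the cytosol, 2.46-fold, and Fam102a 2.18-fold, all without overlap. Tpsab1, a tryptase of mast cells, was 2.28-fold higher at a dim log2 signal of 6.58 to 7.42 in invading samples. Dpt, which encodes the matrix protein dermatopontin, read 7.0, 7.81, 7.01, 7.29 and 7.68 in invading against 6.04, 6.25, 5.98, 5.95 and 6.36 in non-invading samples, 2.37-fold (adjusted p = 0.00034), and its log2 ratio at 72 hours was 0.01. Of the lower ones, Cpa4, a carboxypeptidase, and the adhesion receptor Adgrg6 were 2.51-fold and 2.47-fold lower.

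The 72-hour samples, none of which entered the comparison at 96 hours, gave the same direction for most genes over 1.5-fold. Of the 227 higher genes 191 passed the test at 72 hours as higher, none as lower, and 36 did not pass, and of the 402 lower genes 372 passed as lower, none as higher, and 30 did not pass. The difference between the times passed for none of the 629. Dpt, at 1.24 against 0.01, and Cxcr4, at 0.95 against 0.18, are among those with the widest gaps, and their differences had adjusted p = 0.14. A difference that misses the threshold does not show that the ratios were equal.

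**Figure D5:**
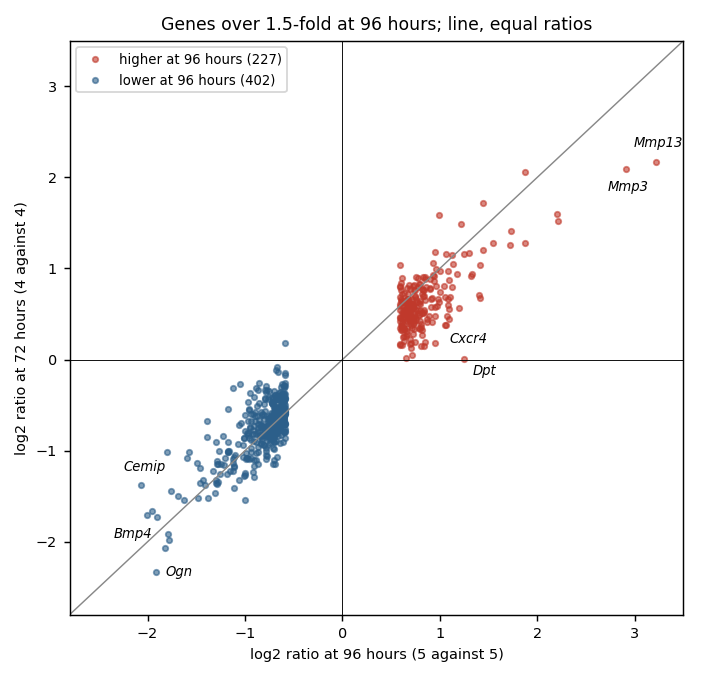
Log2 ratio, invading over non-invading, at 96 hours (horizontal) and at 72 hours (vertical) for the 227 genes higher and the 402 lower by over 1.5-fold at 96 hours, with the line of equal ratios. Points lie along the line in the lower left and upper right, with 1 lower gene just above 0 on the vertical axis, and Dpt and Cxcr4 lie near 0 on the vertical axis.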

How the data were processed

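RNA (miRNeasy kit with DNase step) of 18 samples was labelled with the Ambion WT Expression kit and hybridised to 1-colour Affymetrix Mouse Gene 1.0 ST arrays. The deposited values are log2 signals that the authors made from the scanner files by RMA, with gene-level sketch-quantile normalization, in Affymetrix Expression Console 1.2, as the submitters' processing notes and the study's methods give it. RMA can shrink the differences of dim probe sets and assumes like overall distributions of signal, which is why other scalings were tried. Arrays give no read depth, so precision depends on how many were run per fraction.

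Of 35556 probe sets 21789 carry exactly 1 gene symbol in the platform annotation, 1621 several and 12146 none, and 21698 of the first matched a RefSeq gene by identifier. For each of 19938 genes the probe set with the highest mean was taken. The 5 invading and 5 non-invading samples of 96 hours were compared without covariates in limma 3.58.1 under R 4.3.3, the 4 and 4 samples of 72 hours likewise, and the difference of the 2 log2 ratios as a contrast over all 18. P-values were adjusted by Benjamini-Hochberg over all probe sets, with 0.10 and 1.5-fold as limits, and ± values are SE unless SD is named. Simulated data of the 96-hour comparison were called by an adjusted p under 0.10 alone, without the 1.5-fold limit. There 99 of 100 probe sets changed 2-fold and 92 of 100 changed 1.5-fold were recovered with the right sign, with 21 unchanged ones called. Far fewer probe sets were changed than were called in the real data. The simulation therefore does not give the error of the lists over 1.5-fold.

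The members and the gene lists were chosen with earlier results of these data known. Genes were named by a rule: the 12 highest and 12 lowest ratios without overlap outside the study's printed genes, up to 4 members with the largest changes per list, microRNA loci over 1.5-fold, genes whose ratio differed between times, and cell type markers. Members named beyond these were chosen after their values were seen. Alternatives were the scaling of arrays, a linear signal above 100, the probe sets tested or averaged, the variance estimate, the samples in the fit, the replicate number as a block, an adjusted p under 0.05, and each replicate left out. Sequences and coordinates are from RefSeq on GRCm38.p6.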

Additional observations from a re-analysis of the deposited data

Results flagged for a closer look

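Among 410 groups of 5 samples, from the 205 genes whose ratios are described, 28 held a sample that stood apart from the other 4, where chance gives about 1 in 20 groups. Invading replicate 1 was that sample for 8 genes, with log2 signals of 10.37 for Cct8, 9.07 for Clk4, 11.02 for Egfr, 6.35 for Lrrn4, 7.23 for Mir181b-2, 6.20 for Mirlet7c-1, 10.01 for Srebf2 and 9.91 for Tgfb1. Invading replicate 4 stood apart for Col3a1 at 11.68, and invading replicate 5 for Smc4 at 8.65. Non-invading replicate 1 did so for Apoe at 10.34, Ctsd at 12.45, Gpc1 at 9.56, Mir125b-2 at 4.34, Pdgfb at 7.61 and Tgfbr2 at 11.48. Non-invading replicate 4 did so for Airn at 10.20, Col4a1 at 8.89, Fosl1 at 9.75, Mir181b-1 at 7.46 and Mir99a at 6.88. The rest were Abcc4 at 8.33 and Ptgs2 at 12.01 in non-invading replicate 2, Mmp10 at 5.86 and Tpsab1 at 6.02 in replicate 3, and Fbl at 9.65, Sc5d at 10.01 and Zfp40 at 8.90 in replicate 5.

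For 3 genes the log2 ratio differed between the times in limma, with the value at 96 hours above that at 72 hours by 0.57 for Gtpbp4, a GTPase of ribosome assembly, 0.45 for Pdcl, a co-chaperone of G protein assembly, and 0.59 for Sarnp, a protein of messenger RNA export.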

How the results depend on the processing

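Of the 205 genes whose ratios are described 198 passed the adjusted p, and 190 of these passed it in the same direction under every alternative that gave them a value. The 8 others were Aqp5, Cd14, Cdh1, Epcam, Mirlet7c-1 and Mvk, each of which lost its call without at least 3 of the single replicates, Prdx1, which lost it when quantile normalization was applied again, and Sarnp, which lost it with centring on all probe sets. Mirlet7c-1 had log2 ratios of -0.91 and -0.92 without invading replicates 2 and 5 and of -0.90 without non-invading replicate 1. Signs turned for B2m, Mir99b, Mir30c-1, Mir125b-2 and Mir452 alone, none of which had passed. With centring on all probe sets their log2 ratios were 0.11, 0.09, 0.08, 0.08 and 0.03, and with quantile normalization again those of Mir99b, Mir30c-1 and Mir125b-2 were 0.08, 0.08 and 0.05. Without single replicates B2m ran from -0.03 to 0.01, Mir99b from -0.09 to 0.04, Mir30c-1 from -0.09 to 0.00 and Mir125b-2 from -0.06 to 0.01.

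Centring on all probe sets gave 9120 higher and 1579 lower genes, 428 and 228 over 1.5-fold and 62 higher over 2-fold, and quantile normalization applied again gave 7696 higher genes. Without single replicates the counts ran from 2776 to 3576 higher and from 2455 to 3078 lower, from 213 to 265 and from 344 to 486 over 1.5-fold, and from 38 to 47 and from 63 to 86 over 2-fold. The 72-hour alternatives and those that left out a 72-hour replicate were chosen after seeing the data. At 72 hours centring on all probe sets gave 5030 higher genes, 284 of them over 1.5-fold, quantile normalization again gave 5037, and an adjusted p under 0.05 gave 1652. For the difference between the times, limma called 11 genes with centring on all probe sets, 15 among probe sets above a linear signal of 100, and 0 with probe sets of 1 gene symbol only or an adjusted p under 0.05. Without single replicates it called from 0 to 16, where 1623 genes had an unadjusted p under 0.05 in the fit with all samples. The cause of these shifts was not tested.

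The replicate numbers of the labels were checked for pairing. At 96 hours the deviations of same-numbered samples correlated at 0.049 to 0.169, with 4 of 5 numbers best with their own. At 72 hours they correlated at -0.075 to 0.087, with 1 of 4. The labels do not say whether same-numbered samples shared a culture, and the study names a paired t-test for receptor levels from these arrays. The main comparisons here were not paired. With the replicate number as a block there were 3482 higher and 2989 lower genes at 96 hours, 229 and 407 over 1.5-fold and 40 and 68 over 2-fold, and 0 for the difference between the times.

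The arrays limit small differences of dim probe sets, and balances of small changes rest on the scaling.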
